A study of Macaca mulatta with 24 samples.

Results

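The keratins of the colon epithelium were followed in whole colon tissue of rhesus macaques after total-body irradiation (TBI). The listed keratins were KRT6A, KRT7, KRT8, KRT17, KRT18, KRT19, KRT20, KRT23 and KRT80, and a probe was taken as a member when the array files gave it one of these 9 symbols. Of 43603 transcript probes on the array, 14 met this rule and covered 7 of the 9 keratins: 3 probes for KRT7, 3 for KRT18, 2 each for KRT8, KRT20 and KRT80, and 1 each for KRT17 and KRT23. No probe carried the symbol KRT6A. Another 2 probes were assigned to KRT19 by their gene ID alone, and they are described beside the members but not counted among them. The filter on dim probes kept 13 of the 14 member probes, the second KRT80 probe being not well above background on any array.

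The animals were young-adult males given 1 uniform dose of cobalt-60 gamma radiation. The 7 groups were 4 sham-irradiated controls, labelled day 4, and animals killed on day 4, 7 or 12 after 6.7 Gy or 7.4 Gy, with 4 animals per dose on days 4 and 7 and 2 per dose on day 12. About 3 cm of colon was taken from each animal, and its RNA was hybridised without pooling to a one-colour array, so the 24 arrays stand for 24 animals. The same 4 controls serve every comparison against control. Whole gut wall holds epithelium, muscle, stroma, vessels and immune cells, and in such tissue fewer cells of a type cannot be told apart from less RNA per cell.

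Keratins are the intermediate filament proteins of epithelial cells, built from pairs of a type I keratin (KRT17, KRT18, KRT19, KRT20 and KRT23) and a type II keratin (KRT6A, KRT7, KRT8 and KRT80). KRT8 with KRT18 and KRT19 forms the network of simple, single-layered epithelia such as that of the gut, and KRT20 is a marker of the differentiated cells of the upper crypt and the surface. KRT7 belongs to ductal and glandular epithelia and is scarce in the normal colon, while KRT6A and KRT17 are best known from wounded stratified epithelium. The description below therefore takes the colon-type simple keratins (KRT8, KRT18, KRT19 and KRT20) first and the injury-type keratins (KRT7, KRT17, KRT23 and KRT80) second.

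Values are levels on the log2 scale, each probe's log2 intensity minus the 75th percentile of its array, so that 0 is the brightness of that percentile and a step of 1 is a doubling. Levels of different probes cannot be set against each other, because probes differ in how strongly they bind. A change was called when the Benjamini-Hochberg adjusted p of the limma test over all 38214 probes tested was below 0.05 and the change was at least 2-fold. The share of probes well above background ran from 66.8 to 85.0% per array, none was saturated, and arrays correlated with each other at 0.958 to 0.987 over all 43603 transcript probes. The presence of epithelium was checked with 11 general epithelial genes, EPCAM and VIL1 among them, which does not tell colon from other gut segments. Each was well above background in control colon, on at least 1 array, as most probes on an array were. Their mean level was 3.85 to 4.13 per control array. The 24 arrays filled 6 slides of 4 slots. All 4 controls lay in slot 1 and all 4 animals of the 7.4-Gy day-4 group in slot 2, while 2 of the 4 animals of the 6.7-Gy day-4 group shared slot 1 with the controls, and days 7 and 12 filled slots 3 and 4. Slot position therefore cannot be told apart from irradiation on days 7 and 12. For the 7.4-Gy day-4 group it can be told apart only through the split of the 6.7-Gy day-4 group.

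On day 4 the keratins split. KRT20 was lower after both doses, KRT8 was lower after the higher dose on one probe, and KRT7 and KRT80 were higher after both doses. KRT23 was higher and KRT17 lower after 7.4 Gy, while the KRT18 and KRT19 probes passed the test at neither dose. After 6.7 Gy 3 member probes were called higher and 2 lower of the 13 tested, against 1.83% of all probes called higher and 1.77% called lower. After 7.4 Gy 4 were called higher and 4 lower, against 3.37% and 3.66% of all probes. The median change was -0.64 over the 7 simple-keratin probes and 1.97 over the 6 injury-type probes after 6.7 Gy, and -0.77 and 2.91 after 7.4 Gy. The injury-type median counts KRT7 by 3 probes; with each gene taken once by its brightest probe, it was 0.57 and 0.79 over 4 genes, and that of the 4 simple keratins, KRT19 included, was -0.53 and -0.57. Over all probes tested the median change was -0.07 at the lower dose and -0.08 at the higher.

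**Figure D1:**
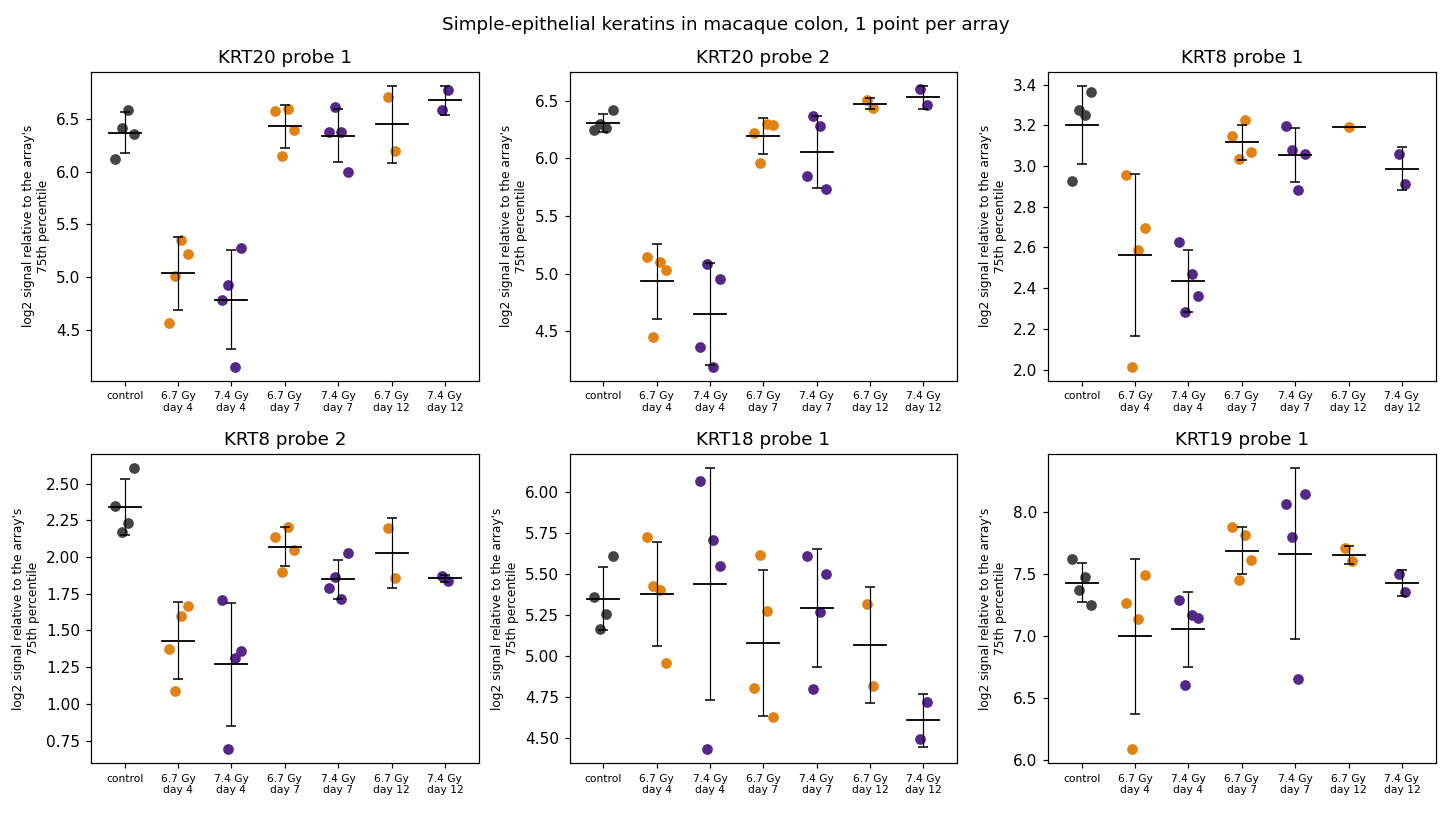
Levels of the colon-type simple keratins in every animal, on the log2 scale relative to the array's 75th percentile, by group; each point is 1 animal and bars give the mean ± SD, with n = 4 on days 4 and 7 and in controls and n = 2 on day 12, other than the first KRT8 probe on day 12 after 6.7 Gy, where 1 outlier spot was left out. Both KRT20 probes and the second KRT8 probe dipped on day 4 below all controls, and the first KRT18 probe overlapped the controls on that day. Of KRT18 and KRT19 only the first probe is drawn.

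KRT20 showed the fall most plainly. Its first probe read 6.12, 6.42, 6.59 and 6.36 in the 4 controls. It read 4.56, 5.01, 5.35 and 5.22 on day 4 after 6.7 Gy and 4.78, 4.93, 4.15 and 5.27 after 7.4 Gy. Every irradiated animal on day 4 lay below every control. The level fell by 1.34 ± 0.22 (SE) on the log2 scale after 6.7 Gy, which is 2.52-fold lower (adjusted p = 0.001367), and by 1.59 ± 0.22 after 7.4 Gy, 3.01-fold lower (adjusted p = 9.675e-05). The second KRT20 probe, at 6.25 to 6.42 in controls, ranged from 4.45 to 5.14 after 6.7 Gy and from 4.19 to 5.09 after 7.4 Gy, with changes of -1.38 ± 0.20 (adjusted p = 0.0005314) and -1.66 ± 0.20 (adjusted p = 3.011e-05). Both probes thus moved by nearly the same amount, and over the 24 arrays, which share the same groups, they correlated at 0.944.

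KRT8, the main type II keratin of simple epithelium, was also lower. The second KRT8 probe read 2.35, 2.17, 2.23 and 2.61 in controls, 1.37, 1.09, 1.60 and 1.66 on day 4 after 6.7 Gy, and 1.71, 0.69, 1.31 and 1.36 after 7.4 Gy, so that neither irradiated group overlapped the controls. Its change of -1.07 ± 0.18 after 7.4 Gy was called (adjusted p = 0.0004806), while that of -0.91 ± 0.18 after 6.7 Gy passed the p threshold (adjusted p = 0.00462) but not the 2-fold minimum. Both values sat near the fold limit. With slot position as a block the lower dose was called as well, at -1.11 (adjusted p = 0.005986), and at -1.18 (adjusted p = 0.01247) with scan day added, a fit in which the higher dose lost its call at -1.67 (adjusted p = 0.05045). The 7.4-Gy call was also lost, with a change of -0.98, without control replicate 4, and with -0.88 without replicate 2 of the 7.4-Gy group. The first KRT8 probe gave -0.64 ± 0.16 (adjusted p = 0.01876) and -0.77 ± 0.16 (adjusted p = 0.00305), under 2-fold at both doses. KRT8 has many near-identical copies in the genome, and 6 further tested probes were annotated as similar to keratin 8 without its symbol. All 6 had negative changes on day 4, from -0.88 to -0.51 after 6.7 Gy and from -1.05 to -0.23 after 7.4 Gy, with none called at the lower dose and 1 at the higher.

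KRT18, the type I partner of KRT8, did not pass the test on any of its 3 probes. The first read 5.36, 5.16, 5.26 and 5.61 in controls, 5.73, 5.43, 5.40 and 4.96 on day 4 after 6.7 Gy, and 6.07, 4.43, 5.71 and 5.55 after 7.4 Gy, so the 3 groups overlapped throughout. Its change after 7.4 Gy was 0.09 ± 0.29, with a 95% interval of -0.51 to 0.69. The second probe gave -0.10 and 0.25, and the third -0.11 and -0.12, after the lower and the higher dose. The 2 tested probes annotated as similar to keratin 18 had changes between -0.32 and 0.10 on day 4, and neither was called.

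KRT19, a type I keratin of simple epithelia that pairs with KRT8, gave lower means on day 4 that lay within the spread of the animals. Its first probe read 7.62, 7.37, 7.48 and 7.25 in controls, 7.27, 6.09, 7.14 and 7.50 after 6.7 Gy, and 7.29, 6.61, 7.17 and 7.15 after 7.4 Gy. The changes of -0.43 ± 0.29 (adjusted p = 0.3698) and -0.38 ± 0.29 (adjusted p = 0.3869) were not called, and replicate 2 was the lowest animal in both irradiated groups. The second probe, with changes of -0.25 and -0.24, showed the same low animals. With slot position as a block the first probe changed by -0.75 after 6.7 Gy and by -1.01 after 7.4 Gy. The second probe then changed by -0.69 and -1.11. Calls under the alternatives were not read for KRT19.

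Many genes known to mark surface epithelium were called lower beside KRT20. Gene lists were read with each gene standing by its brightest probe, and among the 13460 genes so tested 2.36% were called higher and 1.89% lower on day 4 after 6.7 Gy, and 4.23% and 3.99% after 7.4 Gy. Of the 10 absorptive colonocyte markers tested, 6 were called lower after 6.7 Gy and 8 after 7.4 Gy, none higher, and the mean level of the list ranged from 3.55 to 4.02 in control animals, from 0.23 to 1.98 after 6.7 Gy and from -1.04 to 1.90 after 7.4 Gy. CA1, a carbonic anhydrase of surface colonocytes, changed by -6.05 ± 0.97 and -7.46 ± 0.97, sizes that are uncertain because it was well above background in only 2 of 4 animals after 6.7 Gy and in 1 of 4 after 7.4 Gy. Of the 11 general epithelial genes, 2 were called lower after 6.7 Gy, LGALS4 at -1.0 and CDX2 at -1.21. After 7.4 Gy 6 were called lower, with VIL1 at -1.63, LGALS4 at -1.51, CDX2 at -1.29 and CLDN4 at -1.20, and the mean level of the list was 2.97 to 3.55 and 2.73 to 3.24 per array after the lower and the higher dose, below the 3.85 of the lowest control. The part of these shifts in the fall of KRT20 and KRT8 was not tested.

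**Figure D2:**
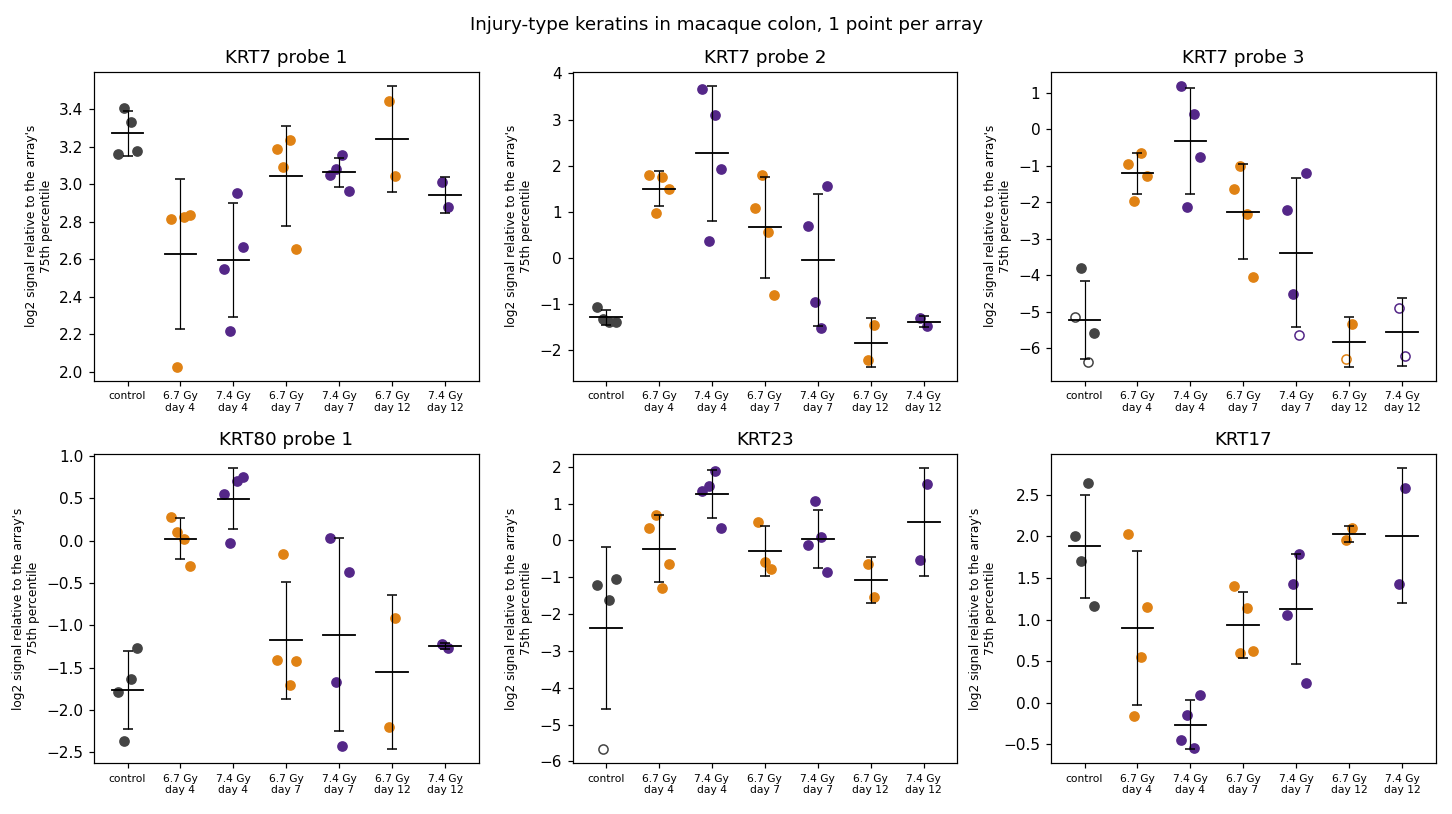
Levels of the injury-type keratins in every animal, on the log2 scale relative to the array's 75th percentile, by group; each point is 1 animal, filled where the probe was well above background and open where it was not, and bars give the mean ± SD (n = 3 for KRT23 on day 7 after 6.7 Gy). The second and the third KRT7 probes and the first KRT80 probe were above all controls on day 4 after both doses, KRT23 after 7.4 Gy, and KRT17 lay below all controls after 7.4 Gy.

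KRT7 rose on day 4 on 2 of its 3 probes. The second probe read -1.06, -1.33, -1.38 and -1.40 in controls. It read 1.79, 0.97, 1.74 and 1.50 on day 4 after 6.7 Gy and 3.67, 0.36, 3.10 and 1.94 after 7.4 Gy, every animal above every control and the higher-dose group spread over more than 3 log2 units. The rise was 2.79 ± 0.66 after 6.7 Gy, 6.93-fold (adjusted p = 0.0132), and 3.56 ± 0.66 after 7.4 Gy, 11.8-fold (adjusted p = 0.001162).

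The third KRT7 probe was dim in control colon, at -5.13, -3.79, -6.37 and -5.59, and well above background in only 2 of the 4 controls. It was well above background in all 8 day-4 animals, at -0.94, -1.96, -0.65 and -1.28 after 6.7 Gy and 1.19, -2.12, 0.43 and -0.77 after 7.4 Gy. The changes were 4.01 ± 0.87 (adjusted p = 0.008517) and 4.91 ± 0.87 (adjusted p = 0.0008357). These sizes are uncertain, since with normexp background correction they were 1.86 (adjusted p = 0.02603) and 2.71 (adjusted p = 0.000778), both still called. The second probe and the third correlated at 0.977 over the 24 arrays, which share the same groups, though the order of animals within a group differed. With slot position on the slide as a block, both probes lost their calls at both doses, at changes of 2.67 and 3.77 after 6.7 Gy (adjusted p = 0.06622 and 0.05101) and 3.32 and 4.42 after 7.4 Gy (adjusted p = 0.09286 and 0.08985). Within slot 1, the second probe was 2.67 higher in the 2 animals of the 6.7-Gy group than in the 4 controls. On slides that held 1 irradiated animal and 1 control, it was higher by 2.80 and 2.82 after 6.7 Gy and by 5.05 and 1.75 after 7.4 Gy. In each of these slide pairs the 2 animals lay in different slots, and no slot held both controls and 7.4-Gy animals of day 4.

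The first KRT7 probe went the other way. It read 3.16, 3.41, 3.33 and 3.18 in controls, 2.81, 2.03, 2.83 and 2.84 after 6.7 Gy and 2.55, 2.22, 2.95 and 2.67 after 7.4 Gy, with changes of -0.64 ± 0.19 (adjusted p = 0.03379) and -0.67 ± 0.19 (adjusted p = 0.01537) that stayed under 2-fold. With slot position as a block the probe was called lower after 7.4 Gy, at -1.09 (adjusted p = 0.03941). In the array files this probe carries the same accession as the probe for KRT81, a hair keratin. Over the 24 arrays it correlated with KRT81 at 0.80 and with the second and the third KRT7 probes at -0.46 and -0.47. KRT81 itself changed by -0.54 and -0.76. Which transcript the first probe reads is uncertain, and as the brightest probe of KRT7 it would by itself give the gene no call.

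KRT80, a type II keratin found near desmosomes, rose at both doses. Its first probe read -1.79, -2.37, -1.63 and -1.27 in controls, 0.28, 0.10, 0.02 and -0.30 on day 4 after 6.7 Gy, and 0.56, -0.03, 0.71 and 0.75 after 7.4 Gy, with no overlap between controls and either dose. The rise was 1.79 ± 0.44, 3.45-fold (adjusted p = 0.01592), after 6.7 Gy and 2.26 ± 0.44, 4.79-fold (adjusted p = 0.001582), after 7.4 Gy. With the slide as a block the 6.7-Gy call was lost, at 1.54 (adjusted p = 0.07638). Within slot 1 the rise was 1.95, from 4 controls to 2 animals of the 6.7-Gy group. On slides with 1 irradiated animal and 1 control, in different slots, it was 1.81 and 2.07 at the lower dose and 2.18 and 1.24 at the higher.

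KRT23, a type I keratin that is low in the resting colon, read -1.20, -5.66, -1.63 and -1.04 in controls, the value of -5.66 in control replicate 2 being not well above background. It read 0.35, 0.68, -1.28 and -0.64 on day 4 after 6.7 Gy, a group that overlapped the controls and was not called, with a change of 2.16 ± 0.80 (adjusted p = 0.09361). After 7.4 Gy the 4 animals read 1.34, 1.47, 1.90 and 0.34, all above the controls, with a rise of 3.64 ± 0.80 (adjusted p = 0.004199). The size of this rise leans on control replicate 2: without it the change was 2.55 (adjusted p = 0.005634) after 7.4 Gy and 1.07 (adjusted p = 0.2535) after 6.7 Gy. By the methods' t-test with adjusted p-values the 7.4-Gy call was lost.

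KRT17, the keratin of basal and wounded stratified epithelium, moved against its group. It read 2.0, 1.71, 2.65 and 1.17 in controls, 2.03, -0.16, 0.55 and 1.15 on day 4 after 6.7 Gy, and -0.46, -0.15, -0.55 and 0.09 after 7.4 Gy. The lower dose overlapped the controls, its replicate 1 lying among them, while all 4 animals of the higher dose were below every control. The change of -0.99 ± 0.41 after 6.7 Gy was not called (adjusted p = 0.1347). That of -2.15 ± 0.41 after 7.4 Gy, 4.43-fold lower, was called (adjusted p = 0.001474). Without replicate 1 of the 6.7-Gy group the lower dose also passed, at -1.37 (adjusted p = 0.04725), and with slot position as a block the higher dose did not, at -2.07 (adjusted p = 0.09344).

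KRT6A, the wound-induced partner of KRT17, could be looked at only through 2 probes annotated as similar to keratin 6A. The first varied widely within groups, from -3.80 to 1.28 in controls and from -2.09 to 1.48 on day 4 after 7.4 Gy, and the second changed by -0.56 and -0.43. Neither was called in any comparison against control.

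**Figure D3:**
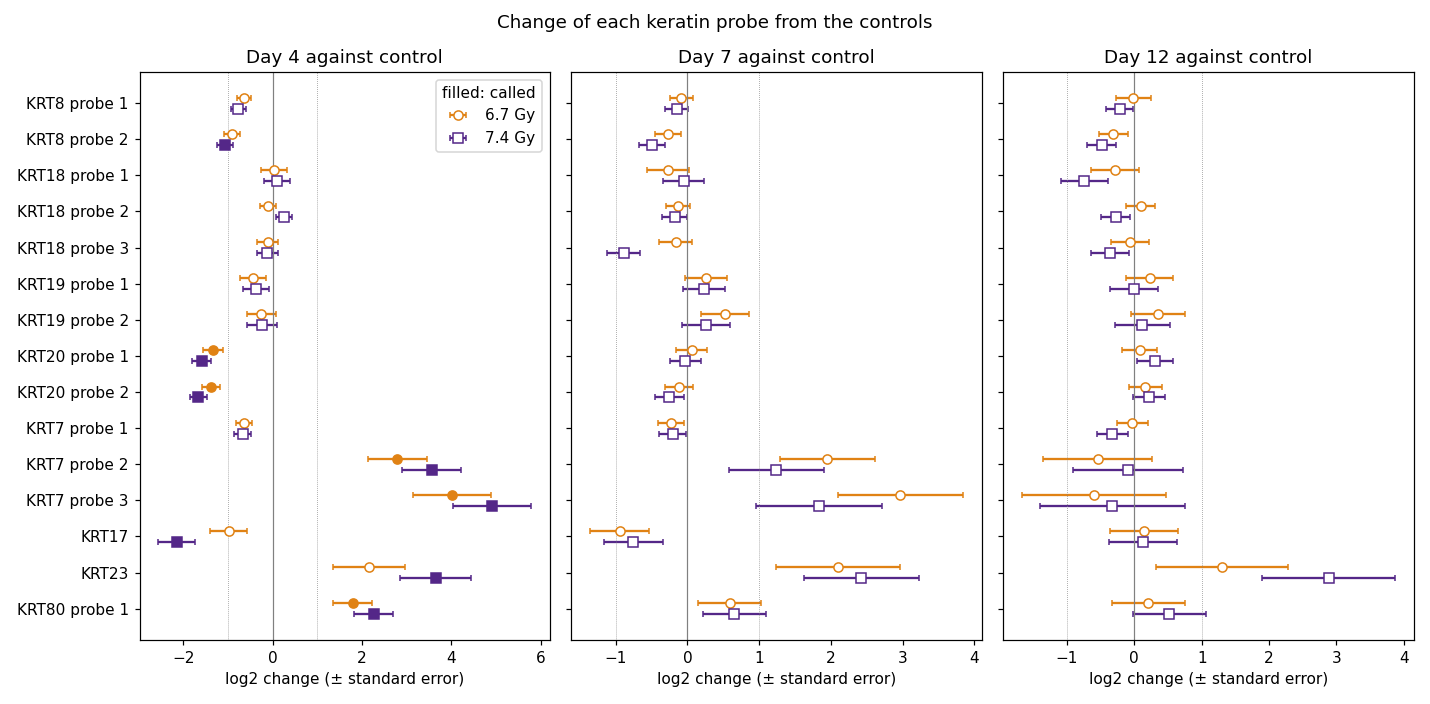
Change of each tested keratin probe against control on days 4, 7 and 12, on the log2 scale, with its standard error from the limma fit; circles are 6.7 Gy and squares 7.4 Gy, filled points were called and open points were not, and dotted lines mark a 2-fold change. Called points lie on day 4 alone: KRT20 to the left and the second and the third KRT7 probes and KRT80 to the right at both doses, and after 7.4 Gy also the second KRT8 probe and KRT17 to the left and KRT23 to the right.

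By day 7 KRT20 was close to its control level again. Its first probe read 6.57, 6.15, 6.60 and 6.40 after 6.7 Gy and 6.38, 6.61, 6.38 and 6.0 after 7.4 Gy, which is 0.06 ± 0.22 and -0.03 ± 0.22 from control. Both KRT20 probes rose from day 4 to day 7, doses together, by 1.48 ± 0.15 and 1.34 ± 0.14, each with an adjusted p of 9.31e-06. The second KRT8 probe was 0.61 ± 0.13 above day 4 (adjusted p = 0.001721), under the 2-fold minimum. After 7.4 Gy it read 1.79, 1.86, 1.72 and 2.03, still below every control, but its change of -0.49 ± 0.18 was not called (adjusted p = 0.2754). The third KRT18 probe stood lower on day 7 after 7.4 Gy, at 2.38, 1.22, 2.32 and 2.62 against 3.13, 3.01, 2.90 and 3.06 in controls, a change of -0.89 ± 0.23 that was not called (adjusted p = 0.09603) and that the other 2 KRT18 probes did not show.

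The injury-type keratins varied between animals on day 7. The second KRT7 probe read 1.09, 1.79, 0.56 and -0.80 on day 7 after 6.7 Gy and 0.70, -0.94, -1.52 and 1.56 after 7.4 Gy. All 4 animals of the lower dose lay above every control, while at the higher dose replicates 1 and 4 lay far above the controls, replicate 2 just above them and replicate 3 below them. In the 7.4-Gy group replicates 1 and 4 were the highest on both of these KRT7 probes and on KRT80, which read 0.03, -1.67, -2.42 and -0.37. Against control the second probe's changes were 1.95 ± 0.66 (adjusted p = 0.2736) and 1.24 ± 0.66 (adjusted p = 0.5104), and neither was called. KRT23 remained at means 2.10 ± 0.87 and 2.42 ± 0.80 above control, not called (adjusted p = 0.4307 and 0.2256), or 1.01 and 1.33 without control replicate 2, and 1 array of the 6.7-Gy group gave no KRT23 value because its spot was an outlier. KRT17 stood at -0.94 ± 0.41 and -0.75 ± 0.41, also not called.

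No member probe was called against control on day 7, where 0.319% of all probes were called after 6.7 Gy and 0.39% after 7.4 Gy, or on day 12, where 0.0183% and 0.0262% were. By limma without adjustment, 4 of the 13 had a p below 0.05 on day 7 at each dose, and 0 and 3 on day 12 after the lower and the higher dose. Of all 38214 probes, 3681 and 4197 had such a p on day 7 after the lower and the higher dose, and 2716 and 2624 on day 12. The methods' t-test, at the thresholds set for a call, also called no member probe against control on these days. Between day 4 and day 7, doses together, 2 member probes were called higher and 3 lower, against 2.37% and 2.06% of all probes. The 3 lower ones were the second and the third KRT7 probes, at -1.58 ± 0.47 (adjusted p = 0.01816) and -2.06 ± 0.62 (adjusted p = 0.0194), and KRT80 at -1.40 ± 0.31 (adjusted p = 0.002929).

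On day 12, with 2 animals per dose, the second and the third KRT7 probes were no longer above the controls, and KRT17 lay among the controls. The second KRT7 probe read -2.20 and -1.46 after 6.7 Gy and -1.30 and -1.46 after 7.4 Gy, and KRT17 read 1.96 and 2.10, and 1.43 and 2.58. After 7.4 Gy the first KRT18 probe read 4.49 and 4.72, below the lowest control at 5.16. Its change of -0.74 was not called (limma adjusted p = 0.7266). The second KRT8 probe then read 1.84 and 1.87, below the lowest control at 2.17. Its change of -0.49 was not called either (limma adjusted p = 0.6918). The second KRT18 and the first KRT8 probes overlapped the controls. KRT23 read -0.64 and -1.53 after 6.7 Gy and -0.53 and 1.54 after 7.4 Gy, the latter a change of 2.88 ± 0.98 that was not called (adjusted p = 0.4938) and that was 1.79 without control replicate 2. Between day 4 and day 12 3 member probes were called higher and 3 lower, against 3.83% and 2.68% of all probes. KRT20 rose by 1.65 ± 0.19 and 1.71 ± 0.17 and KRT17 by 1.71 ± 0.36 (adjusted p = 0.002189), while the second KRT7 probe fell by 3.49 ± 0.57 and KRT80 by 1.66 ± 0.38 (adjusted p = 0.004101). The third KRT7 probe was called lower too, but the size of its fall is not given because on day 12 it was well above background in only 1 of 2 animals after 6.7 Gy and 0 of 2 after 7.4 Gy. From day 7 to day 12 no member was called by limma or by the methods' t-test, while limma called 0.118% of all probes. By limma 4 members had an unadjusted p below 0.05, as had 3674 of all 38214 probes.

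No keratin was called between the doses. On day 4 no member probe was called between 7.4 and 6.7 Gy by limma or by the methods' t-test, as no probe on the array was called by limma. By limma 2 of the 13 had an unadjusted p below 0.05, as had 2361 of all 38214 probes. KRT17 had the lowest p, with a difference of -1.16 ± 0.41 for 7.4 minus 6.7 Gy with a 95% interval of -2.02 to -0.30 (adjusted p = 0.6471). KRT23 differed by 1.48 ± 0.80, with an interval of -0.20 to 3.16. For KRT20 the difference was -0.25 with an interval of -0.71 to 0.20, and for the second KRT7 probe 0.77 with an interval of -0.62 to 2.15, so differences of this size could not be detected with 4 animals per dose. On days 7 and 12 none was called between doses either, with 1 and 0 member probes at an unadjusted p below 0.05, against 709 and 1389 of all 38214 probes. The change of the dose difference from day 4 to day 7 gave no call among the members, and 2 had an unadjusted p below 0.05, as had 1547 of all 38214 probes.

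The partners of keratin filaments were listed as well. Desmosomes anchor keratin filaments at cell contacts, and of 9 desmosome and linker genes tested none was called after 6.7 Gy and 1 after 7.4 Gy. That was DSP, desmoplakin, which ties the filaments to the junction, at -1.29 ± 0.22 (adjusted p = 0.0004946). At the lower dose it was at -0.69, not called. On day 7 DSP was at 0.09 and -0.05. Of 7 genes that fasten epithelium to its basement membrane, ITGA2, a collagen-binding integrin subunit, was higher at both doses, by 1.51 ± 0.36 and 1.58 ± 0.36, and the other 6 were not called.

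Some of the genes known from migrating or regenerating epithelium were called higher on day 4, as the second and the third KRT7 probes and KRT80 were. Of 14 tested, 4 were called higher after 6.7 Gy and 6 after 7.4 Gy and none lower, with a median change of 0.80 and 1.25 over the list. The epidermal growth factor receptor ligand EREG rose by 4.08 ± 0.79 and 3.67 ± 0.79, the serpin SERPINB5 by 3.40 ± 0.84 and 4.89 ± 0.84, and the annexin ANXA3 by 2.55 ± 0.33 and 3.86 ± 0.33. EREG and SERPINB5 were each well above background in only 1 of the 4 controls, so the sizes of their rises are uncertain. The calcium-binding protein S100A2 rose by 3.11 ± 0.57 after 7.4 Gy. On day 7 ANXA3 alone of the list was called against control, at 1.76 and 1.46, and 8 of the 14 were called lower than on day 4. Of the 13460 genes, 0.163% and 0.208% were called higher than control on day 7 after the lower and the higher dose. Between days 4 and 7, 2.39% were called lower.

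Among 13 transcription factors known to act on keratin genes or on epithelial identity, GRHL3, a regulator of epidermal barrier and wound repair, was higher by 2.42 ± 0.52 and 2.84 ± 0.52. The stress-responsive factor CEBPB was higher by 1.28 ± 0.28 and 1.06 ± 0.28. CDX2, which sets intestinal identity, was lower, at -1.21 ± 0.28 and -1.29 ± 0.28, as was OVOL2, a repressor that keeps cells epithelial, at -1.16 ± 0.35 and -1.67 ± 0.35. KLF4, a factor of differentiated colon epithelium, was called lower only after 7.4 Gy, at -1.14 ± 0.18. In all, 2 were called higher at each dose, and 2 and 3 lower, and none of the 13 was called against control on day 7 or 12. Of the 13460 genes, 0.386% and 0.498% were called on day 7 after the lower and the higher dose, and 0.0149% at each dose on day 12.

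**Figure D4:**
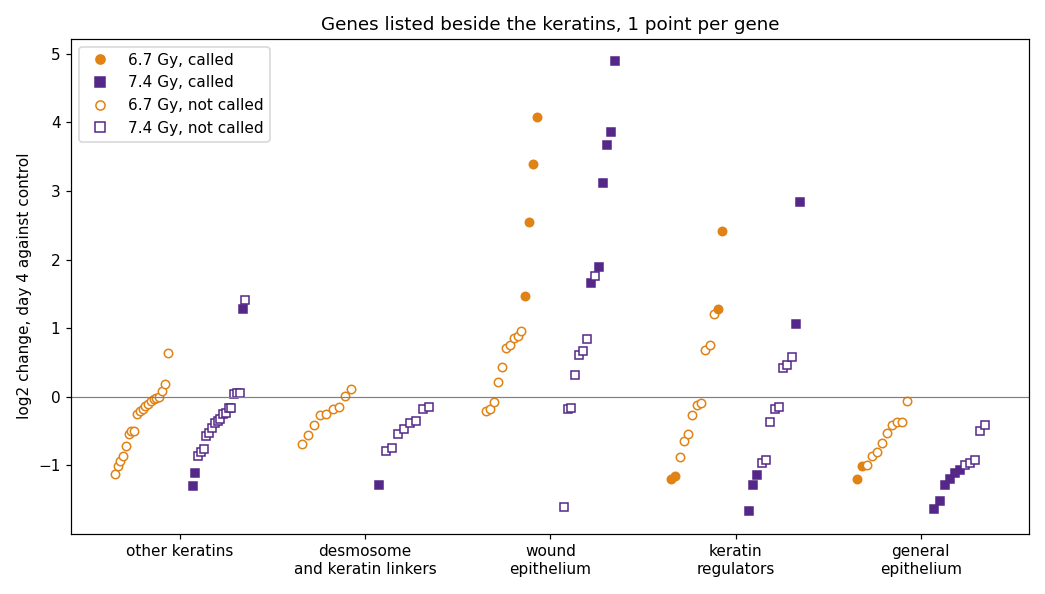
Change on day 4 against control, on the log2 scale, of the genes listed beside the keratins, 1 point per gene by its brightest probe, ordered by size within each list and dose; orange circles are 6.7 Gy and purple squares 7.4 Gy, filled where called. The called points of the wound epithelium list all lie above 0 and those of the general epithelium list all below.

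Few of the other keratins were called. Of 46 listed, 20 were tested, and none of these was called after 6.7 Gy. After 7.4 Gy KRT1, a keratin of differentiated epidermis, was higher by 1.27 ± 0.31 (adjusted p = 0.007144), and KRT14, a keratin of basal stratified layers, was lower at -1.12 ± 0.19 (adjusted p = 0.0005226), as was the hair keratin KRT39 at -1.31, which was well above background in 1 of the 4 animals of that group. Other cytoplasmic and nuclear intermediate filaments, 12 genes with vimentin and the lamins among them, gave 1 call, the neurofilament NEFM at 1.71 ± 0.55 after 7.4 Gy.

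Markers of tissues that make KRT7 or KRT17 outside the colon epithelium, and separately of neutrophils and fibroblasts, were read beside these keratins. Of 10 squamous epithelium genes, TGM1 was called higher at both doses and KRT1 higher and KRT14 lower after 7.4 Gy, and the mean level of the list was -4.16 to -3.52 in controls and -4.32 to -3.27 on day 4 after 7.4 Gy. None of 5 mesothelium genes was called, with a mean level of -3.35 to -0.65 in controls and -1.51 to -0.40 on day 4 after 7.4 Gy. Of 4 neutrophil genes 1 was called higher after 6.7 Gy and 3 after 7.4 Gy, with a mean level of -3.46 to -2.81 in controls, -2.61 to -0.50 after 6.7 Gy and -1.98 to 0.29 after 7.4 Gy. Of 7 fibroblast genes none was called after 6.7 Gy and 3 were called higher after 7.4 Gy. The part of these cells in the keratin levels was not tested.

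The genes whose levels ran most like KRT20, KRT7, KRT80, KRT17 and KRT23 over the 24 arrays were found among genes outside the keratin family, as a description of arrays that share groups and dose. KRT20 ran closest to CNNM2 (r = 0.961) on its first probe and to SDR42E1 (r = 0.967), RAPGEFL1 (r = 0.966) and the monocarboxylate transporter SLC16A1 (r = 0.963) on its second. The second KRT7 probe ran closest to the pore-forming claudin CLDN2 (r = 0.938), the neutrophil chemokine CXCL1 (r = 0.921) and TGM3 (r = 0.920). CLDN2 was also the closest to the third KRT7 probe (r = 0.945) and to KRT80 (r = 0.903). KRT17 ran closest to TBX21 (r = 0.922), a transcription factor of T lymphocytes and natural killer cells, ahead of BSG at 0.876. KRT23 ran closest to OLFML3, at 0.769. Among the keratins themselves, the second KRT20 probe and the second KRT7 probe ran opposite, at -0.84.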

How the data were processed

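RNA from 24 colon samples was labelled with Cy3 and hybridised to one-colour 4 x 44K rhesus arrays. The deposited scanner files hold the processed signal as intensity, already background-corrected by the scanner software. The deposited series tables hold log2 values, which the authors scaled to the 75th percentile of each array. The raw table equalled the scanner values within 0.001 log2 for 100% of values not from outlier spots, and the normalized table was used as an alternative. The label text gives a different last day in the treatment protocol, and each sample's own day label was followed. Outlier spots were set missing (24 to 712 per array), and spots of a probe were averaged. The log2 intensity minus the array's 75th percentile (550.7 to 963.6 intensity units) was fitted with limma 3.58.1 in R 4.3.3. The model held 7 group means over all 24 arrays, on 38214 probes well above background on at least 2 arrays. Benjamini-Hochberg adjustment and the 2-fold minimum follow the study's methods, whose t-test was run as an alternative. Every member was named. Of the gene lists reported, only some of the called genes are named. Lists for other cell types, goblet, enteroendocrine and red blood cells among them, were read but are not reported here. On simulated data, 173 of 200 changed probes were recovered, with 7 false calls, in the comparison of 7.4 Gy day 4 with control. These counts cover all 200 together. Recovery at the size of each keratin change, or with slot position as a block, was not tested. The number of arrays limits precision, most on day 12. Alternatives covered background correction (normexp on the median spot and background signals), scaling, filters, probe choice, blocks for slide, slot position, scan day and replicate number, and leaving out each array. The keratins and gene lists were chosen with earlier results of these data known. No sequence or coordinate is given, since the tables used here hold none of the array's build. The genes most like KRT8 are not reported here.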

Additional observations from a re-analysis of the deposited data

Results flagged for a closer look

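In 3 of 74 sets of 4 animals, each a keratin probe in a group, 1 animal lay far from the other 3, judged by its gap to the nearest of them over the whole range of the group. Chance alone gives about 1 in 20 such sets. On day 4 after 6.7 Gy, replicate 2 read 4.45 on the second KRT20 probe while the others read 5.03 to 5.14, a ratio of 0.844. The same animal read 2.03 on the first KRT7 probe while the others read 2.81 to 2.84, a ratio of 0.972. Control replicate 2 read -5.66 on KRT23, not well above background, while the other controls read -1.63 to -1.04, a ratio of 0.873.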

How the results depend on the processing

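Over 3093 values of member probes under the alternatives, KRT19 not among them, 3065 kept their side of the threshold, 19 lost a call and 9 gained one. The sign was opposite to the reported one for 62 values, all of them called in neither setting. Of 546 counts of called member probes 536 stayed within 1.5 times the reported count. Without the 2-fold minimum 8 member probes passed on day 4 after 6.7 Gy in place of 5, and 8 between days 4 and 7 in place of 5. Counted by gene with all probes of a gene averaged, 3 genes were called on day 4 after 6.7 Gy, 5 after 7.4 Gy and 3 between days 4 and 7. By the brightest probe these counts were 2, 4 and 2, and 3 between days 4 and 12, since the first KRT7 probe stood for KRT7. With slot position and scan day as blocks 2 of the 8 calls after 7.4 Gy were left, both KRT20 probes; KRT23 was then at 3.93 (adjusted p = 0.3404). The position block could not be fitted for days 7 and 12, and the methods' t-test was not run for the change of the dose difference. Leaving out each array in turn gave 5 to 6 calls on day 4 after 6.7 Gy, 7 to 8 after 7.4 Gy, 5 between days 4 and 7 and 6 between days 4 and 12. The replicate number as a block left 5 and 8 calls on day 4 and changed no call of a member probe. The samples share only a number: same-numbered animals deviated together at r = -0.228 to 0.236 over 62 pairs, and 8 of 24 arrays were closest to an array of their own number.

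Scaling on the spike-in controls moved the median change of all probes on day 4 from -0.07 and -0.08 to 0.15 at both doses. It gave 1180 higher and 316 lower calls after 6.7 Gy in place of 700 and 678, and 2208 and 798 after 7.4 Gy in place of 1288 and 1400. Between days 4 and 7 it gave 705 and 1012 in place of 906 and 789. Quantile normalization gave 1216 higher and 1390 lower calls between days 4 and 12 in place of 1463 and 1023. With normexp background correction the medians on day 4 were -0.18 at both doses. The second KRT8 probe lost its 7.4-Gy call under spike-in scaling, at -0.84, and under normexp, at -0.97, and no other call of a member probe changed under these scalings.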

Other observations

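The first probe annotated as similar to keratin 6A ran with KRT5, a keratin of basal stratified epithelium, at r = 0.954 over the 24 arrays. With the other squamous epithelium genes tested it ran from -0.25 for KRT14 to 0.42 for KRT1. With the member probes and KRT19 it ran from -0.45 for KRT17 to 0.55 for the third KRT7 probe. Its level ranged from -3.80 to 1.28 in the 4 controls and from -3.73 to 0.55 on day 7 after 7.4 Gy, and the range within the controls was wider than the range of the 7 group means.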
